A study of Canis lupus familiaris with 77 samples.

Results

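The miR-506 to miR-514 family is represented in the beagle dog miRNA tissue atlas by 6 annotated mature miRNAs, cfa-miR-506, cfa-miR-507a, cfa-miR-507b, cfa-miR-508a, cfa-miR-508b and cfa-miR-514. The prefix cfa marks an annotation of the dog, Canis familiaris. The members were chosen by name from the 650 miRNAs with at least 1 read in a library. The choice used no threshold on level, but earlier results of these data were known. Small RNA was sequenced (miR-seq) in 76 libraries from untreated male beagles, covering 16 tissues. Colon had 4 libraries, sciatic nerve had 2, and the remaining 14 tissues had 5 each. Per the study's methods the dogs were 10 months old and were perfused with buffered saline before the organs were removed. No control group exists, so testis (5 libraries) was set against the 71 libraries of the other 15 tissues. Per the study's methods the tissues came from 5 dogs, so libraries of different tissues share animals. The labels name no individual dog for a library, the tests treat the libraries as independent, and p-values measure the spread between these libraries.

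MicroRNAs are short RNAs that guide Argonaute proteins to partly matching messenger RNAs and lower their translation or stability, and the bases near the 5′ end, called the seed, do most of the target choice. The miR-506 to miR-514 family lies on the X chromosome beside FMR1 in mammals, has changed quickly in sequence and copy number during evolution, and is known for its expression in testis, where germ cells and their supporting cells both express members. Members with the same number and a different letter, such as miR-508a and miR-508b, are closely related mature sequences, and how reads were divided between them was not tested.

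In the gene table of the dog assembly UU_Cfam_GSD_1.0, all 6 members had an entry on chromosome X. They followed one another in the order MIR506, MIR507A, MIR508A, MIR508B, MIR507B and MIR514, with 0 other genes between them. Between SLITRK2, the gene of a neuronal membrane protein, and FMR1, the gene of an RNA-binding protein, the table held 17 miRNA genes. The remaining 11 were genes of miR-8908, and 6 other genes lay between that group and the members. The reads had been aligned to another assembly, CanFam3.1, so the table was used for order only and no coordinates are given. A wider list of 27 miRNA names known from this X-linked region in human, mouse or rat, including miR-509, miR-510, miR-513, miR-888 and miR-465, had no detected miRNA other than the members.

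Reads on miRNAs ranged from 157871 to 7896424 per library, with a median of 1364823. The testis libraries held 265248, 274221, 2027090, 219585 and 287166 reads in replicates 1 to 5. Levels are given as RPM, the reads of an miRNA per 1000000 reads on miRNAs in that library. A count of 0 reads allows up to 3 reads, which was 11.3, 10.9, 1.48, 13.7 and 10.4 RPM in testis replicates 1 to 5. No testis library was a copy of another, since all 10 pairs differed by more than counting error (lowest chi-square per degree of freedom 10.3).

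Testis replicates 2 and 3 stood apart from the other testis libraries. The germ cell list, 7 miRNA rows under dog or human (hsa) names for miR-34b, miR-34c and miR-449, which are abundant in male germ cells and in ciliated epithelium, summed to 56061, 5368, 701, 104748 and 89885 RPM in replicates 1 to 5. The epithelial list, 9 rows of miR-200, miR-141 and miR-429, which keep epithelial cells in their epithelial state, summed to 1485, 6878, 12242, 41.0 and 97.5 RPM in the same order. Replicate 3 was therefore the lowest testis library for the germ cell list and the highest for the epithelial list, with replicate 2 next to it in both. The germ cell sum of replicate 3 lay below the highest library of another tissue (2134 RPM, in brain), while the other 4 testis libraries lay above it. All 5 testis libraries were kept, and values without replicates 2 and 3 are given beside the results they touch.

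The 6 members differed widely in level, and all 6 varied between the testis libraries in much the same way. cfa-miR-506, the first gene of the group on the chromosome, had 223, 19, 0, 301 and 387 reads in testis replicates 1 to 5, which were 841, 69.3, 0, 1371 and 1348 RPM. cfa-miR-508b had 175, 10, 1, 176 and 263 reads, which were 659.8, 36.5, 0.493, 802 and 916 RPM. Both were high in replicates 1, 4 and 5, much lower in replicate 2, and at no more than 1 read in replicate 3, the deepest testis library.

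cfa-miR-508a, the close relative of cfa-miR-508b, had 35, 2, 0, 38 and 55 reads, or 132, 7.29, 0, 173 and 192 RPM. cfa-miR-507b had 16, 0, 0, 29 and 29 reads, or 60.3, 0, 0, 132 and 101 RPM. cfa-miR-514, the last gene of the group, had 16, 0, 0, 19 and 21 reads, or 60.3, 0, 0, 86.5 and 73.1 RPM. These 3 were again highest in replicates 1, 4 and 5, and replicates 2 and 3 held at most 2 reads. cfa-miR-507a was the least abundant, with 8, 1, 0, 12 and 11 reads, or 30.2, 3.65, 0, 54.6 and 38.3 RPM. In bulk tissue, fewer cells of a type and less RNA per cell cannot be told apart, and this holds for every difference between the testis libraries.

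**Figure D1:**
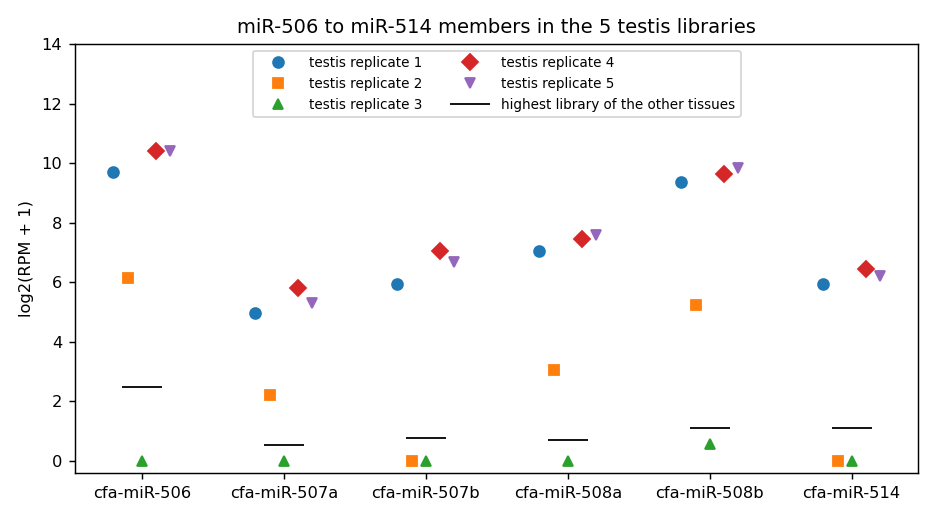
Level of each of the 6 members as log2(RPM + 1) in the 5 testis libraries (symbols) and in the highest library of the other 15 tissues (black line). Replicates 1, 4 and 5 lie close together and far above the line for each member, replicate 2 lies lower or at 0, and replicate 3 lies below the line.

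By median testis level the order was cfa-miR-506 (841 RPM), cfa-miR-508b (659.8 RPM), cfa-miR-508a (132 RPM), cfa-miR-507b and cfa-miR-514 (60.3 RPM each) and cfa-miR-507a (30.2 RPM). The same order was found within replicates 1, 4 and 5, apart from the equal counts of cfa-miR-507b and cfa-miR-514 in replicate 1. Neighbours in the order were compared within libraries by a two-sided exact sign-flip permutation test on log2(RPM + 1), which with 5 libraries cannot give a p below 0.0625. No pair of neighbours could therefore be separated by this test. The largest step was from cfa-miR-508b to cfa-miR-508a, with cfa-miR-508b higher in 5 of 5 libraries by a mean of 1.90 ± 0.74 (SD, n = 5) on the log2(RPM + 1) scale (exact p = 0.0625, adjusted over the 5 comparisons 0.312). cfa-miR-506 exceeded cfa-miR-508b in 4 of 5 libraries, by 0.40 ± 0.59 (SD, n = 5) on the same scale (exact p = 0.25).

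The make-up of the family was measured in the 4 testis libraries with more than 3 member reads. Reads of the 6 members added up to 473, 32, 1, 575 and 766 in testis replicates 1 to 5, or 1783, 117, 0.493, 2619 and 2667 RPM. cfa-miR-506 gave 47.1% of these reads in replicate 1 (95% Wilson interval 42.7 to 51.6), 59.4% in replicate 2 (42.3 to 74.5), 52.3% in replicate 4 (48.3 to 56.4) and 50.5% in replicate 5 (47.0 to 54.1). cfa-miR-508b gave 37.0% (32.8 to 41.4), 31.2% (18.0 to 48.6), 30.6% (27.0 to 34.5) and 34.3% (31.1 to 37.8) in the same libraries. The intervals of the 4 libraries overlapped for both members, while the summed level of these 2 members differed by 20.5-fold between replicates 4 and 2. Replicate 3 had 1 read in all and gives no make-up.

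The remaining members each stayed below 8% of the family. cfa-miR-508a gave 7.40%, 6.25%, 6.61% and 7.18% in replicates 1, 2, 4 and 5. The ratio of cfa-miR-508a to cfa-miR-508b reads was from 0.200 to 0.216 in the 3 libraries with more than 3 reads of both. The ratio of cfa-miR-507a to cfa-miR-507b was from 0.379 to 0.500 over the same 3 libraries. The less abundant partner thus carried the letter a in both pairs. The ratio of cfa-miR-506 to cfa-miR-508b was from 1.27 to 1.90 in 4 libraries, and its SD on the log2 scale was 0.25.

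**Figure D2:**
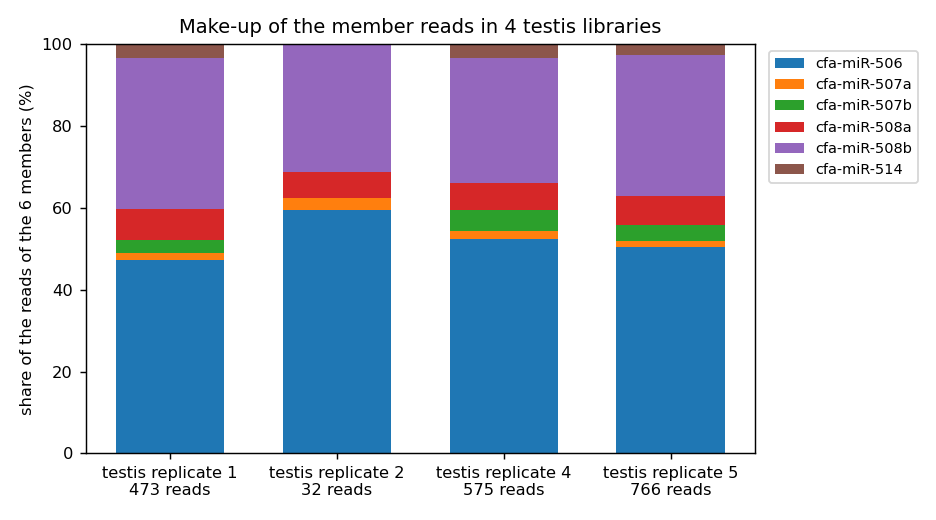
Share of each member in the reads of all 6 members (stacked bars, %) in the 4 testis libraries with more than 3 member reads, whose number is printed under each bar. cfa-miR-506 (47.1% to 59.4%) and cfa-miR-508b (30.6% to 37.0%) made up most reads in each library. Replicate 3, with 1 read, is not drawn.

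Between testis libraries the whole family moved by more than counting error. The summed level was 22.4-fold higher in replicate 4 than in replicate 2 (95% exact interval 15.7 to 33.1) and 15.3-fold higher in replicate 1 than in replicate 2 (10.7 to 22.6). Replicate 4 was at least 1769-fold above replicate 3, whose 1 read was set to 3 reads for this bound. Replicates 4 and 5 differed by less than counting error (1.02-fold, 0.913 to 1.14), and replicate 4 was 1.47-fold above replicate 1 (1.30 to 1.66). These intervals cover counting error only. They treat reads as independent and may be too narrow, because reads copied by PCR are not independent molecules.

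Outside testis the members were found at low counts, with at most 8 reads of all 6 together in a library. The 71 other libraries held 58 reads of the 6 members among 123487955 reads on miRNAs, and the 5 testis libraries held 1847 reads. Testis thus gave 97.0% of all member reads with 2.43% of the reads on miRNAs. At least 1 member read was seen in 26 of the 71 other libraries, from 12 of the 15 other tissues, and none in bone marrow, colon or plasma. The count of 0 allows up to 3.02 RPM over the pooled bone marrow libraries, 0.255 RPM over colon and 0.466 RPM over plasma. Other libraries with a member read had a median of 1901730 reads on miRNAs, and those without had 952113.

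cfa-miR-506 was the member seen most widely, with 40 reads in 21 of the 71 other libraries and 12 tissues, and at most 4 reads in a library. cfa-miR-507a had 1 read outside testis, cfa-miR-507b had 3, cfa-miR-508a had 3, cfa-miR-508b had 4 and cfa-miR-514 had 7. The share of a member's reads that came from testis was lowest for cfa-miR-514 (88.9%) and highest for cfa-miR-508b (99.4%). By tissue, brain held the most member reads, with 13 in 4 of its 5 libraries, a mean of 1.04 ± 0.949 RPM (SD, n = 5). Lung held 11 in 3 of 5 libraries, a mean of 1.96 ± 2.86 RPM (SD, n = 5). The highest summed level of a library outside testis was 6.82 RPM in lung replicate 4. That library was also the highest outside testis for miR-202, at 7.95 RPM, and for cfa-miR-449a of the germ cell list, at 43.2 RPM. The other rows of the germ cell list were highest in brain replicate 3 (the miR-34 rows), thymus replicate 1 (hsa-miR-449b-5p) and lung replicate 3 (cfa-miR-449b). Whether reads were carried over between libraries was not tested.

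**Figure D3:**
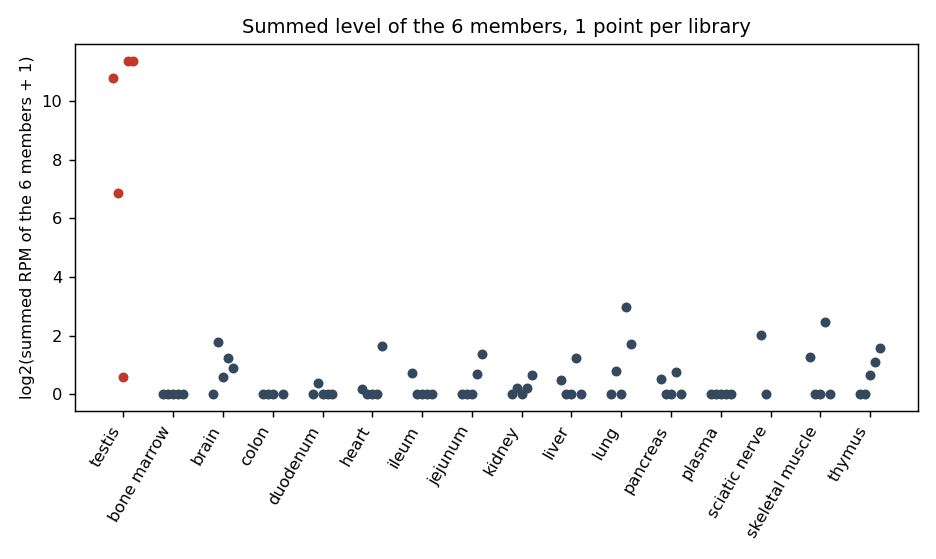
Summed level of the 6 members as log2(summed RPM + 1), with 1 point per library, for testis (red) and the other 15 tissues (dark). Of the 5 testis libraries, 4 lie above every library of the other tissues and replicate 3 (0.493 RPM) lies among them.

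Each testis level was then compared with the other tissues across all 650 miRNAs, using the two-sided exact rank-sum test with Benjamini-Hochberg adjustment. All 6 members were higher in testis, against a background of 14.2% of the 650 miRNAs (92). The study had listed members as testis-enriched from these same samples, so the direction is not independent evidence. In 4 of 5 testis libraries, cfa-miR-506, cfa-miR-507a, cfa-miR-508a and cfa-miR-508b exceeded every other library, and cfa-miR-507b and cfa-miR-514 did so in 3 of 5. For cfa-miR-507a and cfa-miR-508a the 4 include replicate 2, with 1 and 2 reads (3.65 and 7.29 RPM), under the 10.9 RPM of 3 reads there. None of the 6 was free of overlap with the other tissues, because replicate 3 held at most 1 read, and 0.769% of all miRNAs were free of overlap. The members' median fold of the testis mean over the mean of the other libraries was 3474 as computed and 19.7 with the 5 folds that are lower bounds set to their bound. Over all 650 miRNAs the median was 0.646 as computed and 0.574 with bounds.

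cfa-miR-506 averaged 726 ± 666 RPM in testis (SD, n = 5) and 0.404 RPM in the other libraries, a 1798-fold difference (exact rank-sum adjusted p = 0.0219). The mean of the other libraries rested on 40 reads, with 50 of 71 libraries at 0. The fold was 948 with DESeq2 size factors, and at least 178 with every other library set to at least 3 reads. cfa-miR-508b averaged 483 ± 434 RPM and had the smallest p of the 6 (exact rank-sum adjusted p = 2.17e-05). That p takes its 1 read in testis replicate 3 (0.493 RPM) at face value, under the 1.48 RPM of 3 reads there. No library of the other tissues had more than 3 reads of cfa-miR-508b. Its level was therefore compared with the level of 3 reads and was at least 119.6-fold higher in testis. cfa-miR-508a averaged 101 ± 91.3 RPM, at least 24.95-fold higher than that level (exact rank-sum adjusted p = 2.33e-04). Both miR-508 members thus had smaller p-values than the more abundant cfa-miR-506. Reads were found in 21 other libraries for cfa-miR-506, in 4 for cfa-miR-508b and in 2 for cfa-miR-508a. In replicate 3 both cfa-miR-506 and cfa-miR-508a were at 0.

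The less abundant members passed the same test with smaller bounds. cfa-miR-507b averaged 58.7 ± 59.3 RPM in testis (SD, n = 5), at least 14.5-fold higher (exact rank-sum adjusted p = 0.00479). cfa-miR-514 averaged 44.0 ± 41.2 RPM, at least 10.9-fold higher (exact rank-sum adjusted p = 0.00832). cfa-miR-507a averaged 25.4 ± 23.3 RPM, at least 6.28-fold higher (exact rank-sum adjusted p = 2.30e-04). That p takes its 1 read in replicate 2 at face value, where cfa-miR-507b and cfa-miR-514 had 0 reads. The bounds follow each member's testis level, since they share the same floor, and give no order of enrichment.

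The calls of cfa-miR-506 and cfa-miR-514 were lost when any 1 of several testis libraries was left out, so each call needed all of those libraries. Without replicate 3 the exact rank-sum adjusted p was 5.35e-05 for cfa-miR-506 and 0.00271 for cfa-miR-514. Without replicate 2 that of cfa-miR-514 was 0.00305. Without replicate 1, 2, 4 or 5 the adjusted p of cfa-miR-506 was 0.084, 0.0748, 0.0868 and 0.0868, and without replicate 1, 4 or 5 that of cfa-miR-514 was 0.066, 0.0644 and 0.0652. The fold of cfa-miR-506 in those comparisons was 1726, 2204, 1398 and 1412, and the bound of cfa-miR-514 was 9.88, 8.26 and 9.09. The other 4 members stayed under 0.05 with any single testis library left out. For cfa-miR-507b the exact rank-sum adjusted p came close to that limit, at 0.0491, 0.0491 and 0.047 without replicate 1, 4 or 5. Values without replicates 2 and 3 were added after the levels had been seen and are given as a description, since replicates 1, 4 and 5 lay above every other library for each member. Without them cfa-miR-506 was 2939-fold higher, and the bound of cfa-miR-508b was 196-fold.

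By the study's criteria all 6 members were tissue-enriched (TE), which requires a fold of means above 5 and an adjusted rank-sum p below 0.05, against a background of 7.85% of miRNAs. All 6 were also highly tissue-enriched (HTE), for which the testis median must exceed the highest other library by more than 5 times, against a background of 5.23%. A further condition stated for HTE, detection in at most 2 tissues, was not applied here. Counting any read as detection, only cfa-miR-507a, with reads in 2 tissues, would meet it, since the other members had reads in 3 (cfa-miR-508a) to 13 (cfa-miR-506) tissues. For HTE the ratio was 185 for cfa-miR-506 as computed. With every other library set to at least 3 reads it was at least 44.2 for cfa-miR-506, 34.7 for cfa-miR-508b and 6.94 for cfa-miR-508a. For cfa-miR-507b, cfa-miR-514 and cfa-miR-507a the bound was 3.17, 3.17 and 1.59, below the limit of 5, so their HTE call rests on counts of 1 or 2 reads elsewhere taken at face value. With a filter that keeps only miRNAs with a tissue median above 100 RPM, cfa-miR-506, cfa-miR-508a and cfa-miR-508b remained to be called, and all 3 were TE and HTE.

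Set against 1 tissue at a time, with p-values adjusted over all 9750 tests of 650 miRNAs against 15 tissues, 11 of 90 member comparisons passed, against a background of 9.84%. All 11 were of cfa-miR-508b, the only member with a read in every testis library (exact rank-sum adjusted p = 0.0478 in each, mean 483 ± 434 RPM in testis). In replicate 3 that was 1 read (0.493 RPM), under the 1.48 RPM of 3 reads, so all 11 calls rest on this read taken at face value. In liver and pancreas the highest library also had 1 read, at 0.399 and 0.447 RPM. They covered bone marrow, brain, duodenum, heart, ileum, kidney, liver, pancreas, plasma, skeletal muscle and thymus. At an unadjusted p under 0.05, 47 of 90 passed, against a background of 15.7%, namely 14 of 15 tissues for cfa-miR-508b, 13 each for cfa-miR-507a and cfa-miR-508a, 7 for cfa-miR-506 and 0 for cfa-miR-507b and cfa-miR-514. With 5 libraries against 5 the smallest possible p is 0.00794, and against the 2 sciatic nerve libraries it is 0.0952. Without any single testis library, and without replicates 2 and 3, 0 of 90 passed the adjusted test. With 4 libraries against 5 the smallest possible p is 0.0159. With all 5 testis libraries a rank-sum p of 0.0159 was adjusted to 0.078, so group size limits these counts.

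In a count model over all tissues, edgeR's quasi-likelihood test set testis against the mean of the other 15 tissues on the log scale. It called all 6 members higher, against a background of 34% of 480 miRNAs tested (163 higher and 77 lower). The adjusted p was from 3.06e-30 for cfa-miR-506 to 2.34e-07 for cfa-miR-507a. Without scaling beyond the total, 193 miRNAs were higher and 44 lower, so the share of calls that were higher went from 67.9% to 81.4% and the median log2 difference of all miRNAs tested was 0.33 higher. All 6 members were called higher there too. With DESeq2 only 2 of the 6 passed, cfa-miR-506 (adjusted p = 5.86e-14) and cfa-miR-508b (adjusted p = 0.0349), and the other 4 had adjusted p-values from 0.304 to 0.467.

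Among 141 other miRNAs with a testis median above 100 RPM, the ones whose profile over the 5 testis libraries was most like that of the members were sought. The measure was the SD, over the 5 libraries, of the difference between the log2(RPM + 1) of the miRNA and the mean log2(RPM + 1) of the members, which was 3.23 at the median of all ranked. The smallest SD belonged to cfa-miR-8908b (0.25), then cfa-miR-34c (0.39), cfa-miR-34b (0.40), cfa-miR-8908c (0.41) and cfa-miR-8831 (0.47). The members themselves had SDs from 0.23 (cfa-miR-508a) to 1.34 (cfa-miR-506) around their own mean. The mean of the members is itself affected in replicates 2 and 3 by members at 0 reads. Members already at 0 reads in replicate 2 could not fall further in replicate 3, so the mean understates that drop. The summed level of the members was at least 78.8-fold higher in replicate 2 than in replicate 3, while cfa-miR-34c stood at 4631 and 582 RPM. The ranking therefore depends on the floor, and cfa-miR-202, at least 163-fold higher in replicate 2 than in replicate 3, had rank 21 (SD 1.91). Replicates 2 and 3 were both below the other testis libraries for 48.6% of the 144 miRNAs with a testis median above 100 RPM, so the low position of these libraries was common among testis miRNAs.

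cfa-miR-8908b, a neighbour of the members on the X chromosome, stood at 456, 18.2, 2.96, 897 and 871 RPM in replicates 1 to 5. cfa-miR-34c, which acts with miR-449 in the formation of sperm, stood at 49237, 4631, 582, 93353 and 80187 RPM. cfa-miR-8831 stood at 268, 21.9, 0.493, 524 and 505 RPM. Each was high in replicates 1, 4 and 5 and lowest in replicate 3, as were the members. Of the 7 detected miR-8908 miRNAs, which were chosen as a group after their values were seen, all were TE and HTE at face value (backgrounds 7.85% and 5.23%), and they summed to 2330, 241, 12.8, 4631 and 3994 RPM. Against the level of 3 reads, cfa-miR-8908e had a fold bound of 4.64 and an HTE bound of 1.47, and cfa-miR-8908f an HTE bound of 1.19, all under the limit of 5. The summed miR-8908 level in replicate 4 was 19.2-fold that of replicate 2 (95% exact interval 14.99 to 25.1), and the members' was 22.4-fold.

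The marker lists were compared with the members between testis libraries. The germ cell list was 19.5-fold higher in replicate 4 than in replicate 2 (95% exact interval 18.5 to 20.6), and its sum in the other tissues ranged from 0 to 2134 RPM. All 7 rows were TE and HTE at face value (backgrounds 7.85% and 5.23%), although the bounds of cfa-miR-449b were 3.21 for the fold and 0.198 for HTE, and all 7 were lowest in replicate 3. miR-202, which is made in the somatic cells of the gonad, was 20.4-fold higher in replicate 4 than in replicate 2 (15.9 to 26.5) and had 1 read in replicate 3. The folds of the members, the germ cell list and miR-202 between replicates 4 and 2 had overlapping counting intervals. Between other replicates the members and the germ cell list did not keep the same fold. Replicate 4 was 1.87-fold above replicate 1 for the germ cell list (1.83 to 1.91) and 1.47-fold for the members (1.30 to 1.66), and replicate 5 was 0.858-fold replicate 4 (0.843 to 0.874) and 1.02-fold (0.913 to 1.14).

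Between replicates 2 and 3 the germ cell list differed less than the members did. It was 7.66-fold higher in replicate 2 (7.12 to 8.25), the miR-8908 sum was 18.8-fold higher (11.8 to 30.8), and the member sum was at least 78.8-fold higher. miR-202 was at least 163-fold higher in replicate 2. Replicate 3 thus kept 1420 reads of the germ cell list while it had 1 read of the 6 members and 1 read of miR-202. In replicate 4 the germ cell list had 23001 reads and the members had 575.

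The epithelial list ran the other way, with 8 of its 9 rows highest in replicate 3. Its sum was 41.0 RPM in replicate 4, the library with the most germ cell signal, where cfa-miR-200a, cfa-miR-200b and cfa-miR-200c were at 0 reads, and it ranged from 6.84 to 26024 RPM in the other tissues. The smooth muscle and connective tissue list, 9 rows led by cfa-miR-143, summed to 99262, 295094, 243624, 80648 and 90216 RPM in replicates 1 to 5, and it ranged from 813 to 618098 RPM elsewhere. cfa-miR-143, abundant in smooth muscle, gave from 90.5% to 97.0% of that sum and made replicates 2 and 3 its highest libraries. The other 8 rows together summed to 8765, 12060, 7385, 6244 and 8570 RPM, and 3 of the 9 rows, cfa-miR-199, cfa-miR-214 and hsa-miR-199a-5p, were lowest in replicate 3. None of the 9 epithelial rows differed between testis and the other tissues by the rank-sum test, and 4 of the 9 smooth muscle and connective rows were higher (background 14.2%). edgeR, which averages the other tissues on the log scale, called 9 of 9 and 8 of 9 higher (background 34%). The median fold of the testis mean over the mean of the other libraries was 0.884 for the epithelial rows and 1.84 for the smooth muscle and connective rows. The edgeR calls therefore do not show a higher mean level of the epithelial list in testis. The part of these cell types in the low member levels of replicates 2 and 3 was not tested.

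The lists of more distant tissues stayed below their highest library elsewhere. The blood list, 9 rows including miR-451 and miR-486 of red blood cells, summed to 8886, 4606, 1453, 4759 and 2190 RPM, with 4 of the 9 rows lower in testis than elsewhere by the rank-sum test (background 2.31%) and hsa-miR-223-5p at 0 in all 5 libraries. The striated muscle list of 13 rows summed to between 219 and 1006 RPM, with cfa-miR-208a, a marker of heart muscle, at 0, and reached 116605 RPM elsewhere. The liver list of 2 rows summed to between 3.45 and 36.4 RPM in testis and reached 29994 RPM elsewhere. The brain list of 5 rows, mostly cfa-miR-128, summed to 1116, 427, 348, 1557 and 1348 RPM in replicates 1 to 5 and reached 91493 RPM elsewhere. It was also lowest in replicates 2 and 3, with a fold of 3.65 between replicates 4 and 2 (2.95 to 4.54). The pancreas list of 5 rows summed to between 0 and 34.8 RPM and reached 18041 RPM elsewhere. 

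**Figure D4:**
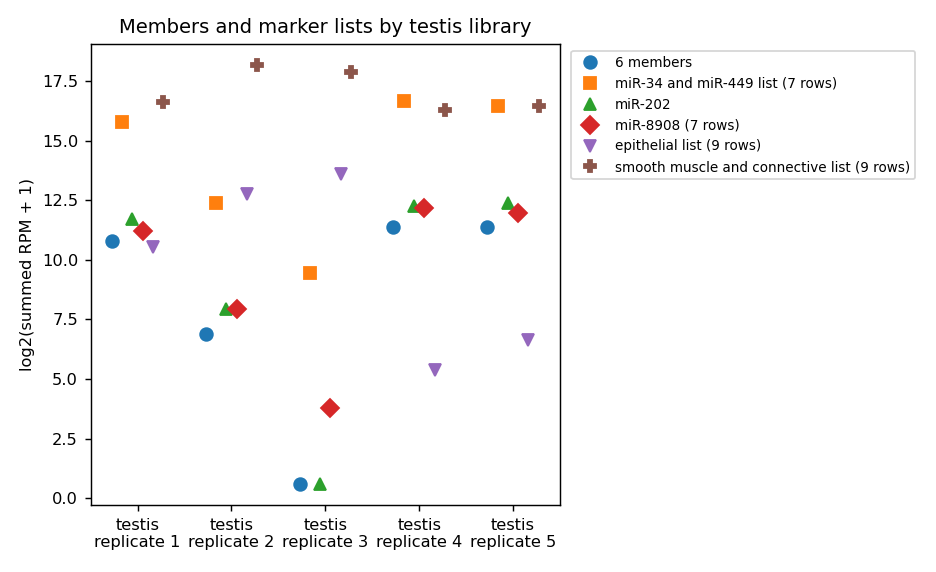
Summed level as log2(summed RPM + 1) of the 6 members and of 5 other groups of miRNAs in each testis library, with symbols set side by side within a library. The members, miR-202, miR-8908 and the miR-34 and miR-449 list are lower in replicates 2 and 3 than in the other libraries, and the epithelial list and the smooth muscle and connective list, mostly cfa-miR-143, are highest in replicates 2 and 3.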

How the data were processed

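The authors aligned adaptor-clipped reads to CanFam3.1 without mismatches, dropped reads with more than 10 genomic locations, and counted those overlapping a miRNA locus, annotated or putative, by 70% or more, with loci taken from dog, human and rat. The deposited table holds these counts, each library's total on miRNAs, and the RPM and highest RPM per miRNA, which the authors computed from the counts. Unlisted miRNAs were set to 0. RPM recomputed from deposited counts and totals differed by a relative 2.89e-09 at most. Counts summed to up to 1.16% more than the total, so some reads were counted on more than 1 miRNA. Of the 77 sample names, 1 could not be tied to a single label and was left out, and 1 labelled colon sample had no values and was not analysed here.

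Tissue groups came from the labels. Rank-sum tests were two-sided and exact on midranks, adjusted over the 650 detected miRNAs. Comparisons with single tissues were adjusted over all 9750 tests, although the plan named the member comparisons alone. Folds against tissues with no library above 3 reads are lower bounds against 3 reads. Shares have 95% Wilson intervals. Count models used edgeR 4.0.16 (TMM, filterByExpr, 1 mean per tissue), with DESeq2 1.42.0 as an alternative, in R 4.3.3. Everything else used scipy 1.17.1, pandas 2.3.3 and numpy 2.4.6 in Python 3.11.15, with plots by matplotlib 3.10.9. The tests were tried on simulated data. The alternatives were other scalings, filters, adjustment families and fold references, thinning to the smallest library, and each testis library left out in turn.

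The miRNAs named are the 6 members, detected miRNAs of the X-linked name list, the cell type lists, and the 5 miRNAs nearest in profile. miR-8908 was added after values were seen. Sequences were not used, so miRNAs sharing a seed with a member were not named. The members and lists were chosen with earlier results of these data known.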

Additional observations from a re-analysis of the deposited data

Results flagged for a closer look

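A library was marked where it stood far from all others of its tissue by Dixon's criterion, which chance meets in about 1 of 20 groups, and 2 of 26 groups tested met it. The total of testis replicate 3 was 2027090 reads, while the other testis libraries had from 219585 to 287166. cfa-miR-506 was at 0.654 RPM in ileum replicate 1, from 4 reads, and at 0 in the other 4 ileum libraries. With those 4 libraries at 0 the criterion is met by construction, so the rate of about 1 of 20 does not apply to this group. In duodenum, jejunum, liver and pancreas cfa-miR-506 likewise had reads in only 1 library, with 1 read in each tissue, and these were not marked. Ileum replicate 1 had 6117500 reads on miRNAs, the most of the ileum libraries. Neither the summed level of the members in testis nor any single member in testis met the criterion.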

How the results depend on the processing

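No paired analysis was possible because the labels tie no library to 1 of the 5 dogs that the tissues share. The 6 members stayed higher in testis, TE and HTE under other scalings, thinning to the smallest library, a minimum of 10 reads and adjustment over all tissues, where these apply, with folds taken at face value. The fold bounds were lower there, from 6.28 to 3.79 (TMM), 3.12 (DESeq2 size factors) and 1.60 (thinned) for cfa-miR-507a, from 119.6 to 71.7, 59.1 and 25.1 for cfa-miR-508b, and when thinned 3.13 for cfa-miR-507b and 2.67 for cfa-miR-514, so some lay under the limit of 5. With a tissue median above 100 RPM required, 48 miRNAs were higher in testis, 21 TE and 15 HTE in place of 92, 51 and 34, and 3 members remained in each class. With each testis library left out in turn, from 59 to 85 miRNAs and from 4 to 6 members were higher by the rank-sum test, the lowest count of miRNAs without replicate 1. The 11 member comparisons with single tissues became 0 with any testis library left out and 0 without replicates 2 and 3, both added after the values were seen. With 4 libraries against 5 the smallest possible p is 0.0159, against 0.00794 with 5 against 5. In the edgeR comparison, 44 miRNAs were lower without scaling in place of 77, and DESeq2 called 97 higher in place of 163 and 2 members in place of 6; the cause was not tested. The order of the members held in 3 of 6 positions within testis replicate 2 and 4 of 6 within replicate 3, where counts were near 0. Depth limits the less abundant members most, since 3 reads were 10.4 to 13.7 RPM in the 4 shallower testis libraries.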
